A study of Mus musculus with 28 samples.

Results

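Transcripts of 10 genes of extracellular proteolysis were followed in mouse macrophages: the matrix metalloproteinase genes Mmp8, Mmp9, Mmp12, Mmp13, Mmp14 and Mmp19, the tissue inhibitor genes Timp1, Timp2 and Timp3, and Adam8. The members were listed by symbol, each was matched to 1 Ensembl gene ID, and they are 10 of the 55487 gene IDs measured. They had been picked with results of these libraries in view, so their levels and differences are given as a description, without p-values. Matrix metalloproteinases are zinc enzymes that are made as inactive precursors and cleave collagens, elastin, other matrix proteins and many secreted or membrane proteins. TIMPs bind the active site of these enzymes and block it. Macrophages are a major source of several of them, and their balance bears on tissue repair, invasion and the release of cytokines from cell surfaces.

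The libraries held poly(A) RNA of macrophages that were grown in culture from wild-type mouse bone marrow. The study asked how taking up dying T cells changes macrophage transcripts under different polarization. Each of 7 groups had 4 libraries. The M0 group was kept for 48 h in a non-polarizing condition, and the other 6 groups received IFN-γ or IL-10 at 50 ng/mL for 48 h. For each cytokine, 1 group had engulfed dying conventional CD4 T cells (Tconv-phagocytic), 1 had engulfed dying regulatory T cells (Treg-phagocytic) and 1 was non-phagocytic. The T cells had been treated with ATP/NAD+ and stained with an anti-CD4 antibody carrying BV421 or Ax647, and macrophages were sorted after co-culture. Non-phagocytic macrophages are therefore cells that were sorted as negative from a co-culture. Whether the M0 cells had met T cells is not given in their labels, although the study's design text names co-culture under non-polarizing conditions. In a difference from M0, the cytokine cannot be told apart from contact with T cells. No label says that the libraries came from separate mice or cultures, so every test measures the spread between these libraries, which may be technical. The age and sex of the mice are not given in the sources used here. Phagocytic libraries are listed below in the order in which their titles name the dye and number: BV421-1, BV421-2, Ax647-1 and Ax647-2 for Tconv, and Ax647-1, Ax647-2, BV421-1 and BV421-2 for Treg.

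The values are TPM, a transcript abundance that corrects for gene length and sequencing depth and can be compared between genes. All 8 macrophage markers, among them Adgre1 and Csf1r, were present in every group, with summed levels of 16530 to 21300 TPM over the libraries. The libraries under IFN-γ were the shallowest, with a relative depth of 11.2% to 24.3% of the deepest library, against 48.8% to 90.0% under IL-10 and 68.7% to 100% in M0. Between 14148 and 18457 genes were above 0. Summed levels of 10 T cell markers were 186.8 to 272 TPM in M0, 474.2 to 819.1 TPM under IFN-γ and 154.6 to 272.4 TPM under IL-10. Il7r made up much of the sum in M0, with a mean of 159 TPM there. Its group means were 96.0 to 114 TPM under IFN-γ and 90.8 to 108 TPM under IL-10. The other markers all had higher group means under IFN-γ than in M0. Trbc2, for example, was at 17.6 TPM in M0, 166 to 189 TPM under IFN-γ and 19.4 to 48.2 TPM under IL-10. Summed levels of 10 neutrophil markers were 17.83 to 69.58 TPM, with Ly6g at 0 in all 4 libraries of each IFN-γ group and of non-phagocytic IL-10 macrophages. Among 8 osteoclast markers, Calcr was at 0 in every group and the sums were 196.2 to 357.3 TPM, highest in M0. Dendritic cell markers summed to 15.2 to 47.4 TPM over 8 genes. Stromal markers differed most between groups, and their values stand beside the inhibitors below.

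Among the 6 MMP genes, Mmp12 supplied most of the transcripts in M0, under IFN-γ and in non-phagocytic IL-10 macrophages. Of the summed TPM of the 6 MMP genes, Mmp12 made up 93.6% ± 0.330 (SD, n = 4) in M0, 87.4% ± 2.31 (SD, n = 4) in non-phagocytic IFN-γ macrophages and 65.6% ± 0.624 (SD, n = 4) in non-phagocytic IL-10 macrophages. Its share was 35.3% ± 0.552 (SD, n = 4) in Tconv-phagocytic IL-10 macrophages, where Mmp14 made up 35.1% ± 1.05 (SD, n = 4), and 49.7% ± 1.17 (SD, n = 4) in Treg-phagocytic ones. The sum itself was 902 TPM ± 26.2 (SD, n = 4) in M0, 332 TPM ± 8.70 (SD, n = 4) in non-phagocytic IL-10 and 207 TPM ± 6.40 (SD, n = 4) in non-phagocytic IFN-γ macrophages. The 3 TIMP genes summed to 241 TPM ± 8.40 (SD, n = 4), 226 TPM ± 10.8 (SD, n = 4) and 145 TPM ± 11.3 (SD, n = 4) in the same groups, so the transcripts of the 6 proteases outnumbered those of the 3 inhibitors 3.75-fold ± 0.235 (SD, n = 4), 1.47-fold ± 0.0606 (SD, n = 4) and 1.43-fold ± 0.137 (SD, n = 4). In IL-10 macrophages that had taken up T cells the ratio was near or below 1, at 0.83 ± 0.0454 (SD, n = 4) after Tconv uptake and 0.959 ± 0.0443 (SD, n = 4) after Treg uptake. The ratio counts only these members and depends on which genes are counted. Mmp27, which is not among the 6, was at 16.6 TPM after Tconv and 18.0 TPM after Treg uptake under IL-10.

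**Figure D1:**
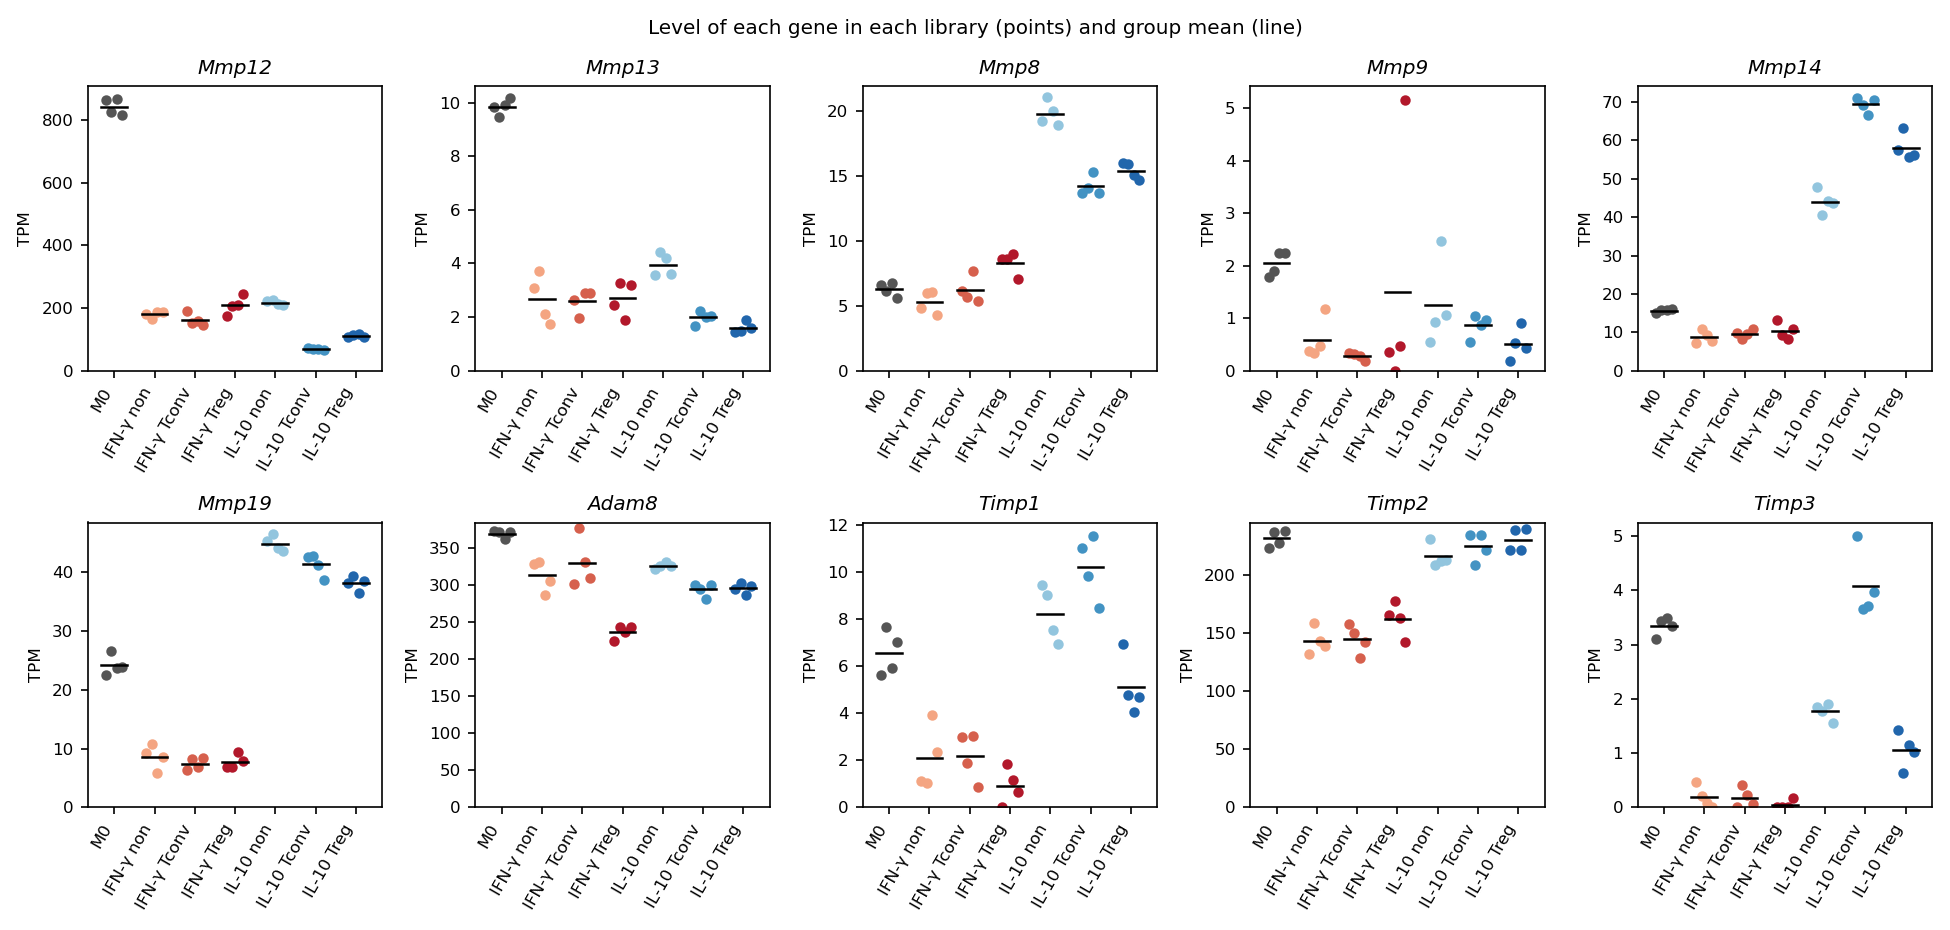
TPM of the 10 genes in each of the 28 libraries (points; the line is the mean of 4 libraries), with a linear axis from 0 for each gene. M0 libraries are far above all others for Mmp12 (816 to 869 TPM) and Mmp13, the 12 IL-10 libraries are above all others for Mmp8, Mmp14 and Mmp19, and the 12 IFN-γ libraries are at or near 0 for Timp3.

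Mmp12, the macrophage elastase, had its highest level without cytokine. The 4 M0 libraries held 864.44, 824.88, 869.15 and 815.97 TPM. Non-phagocytic macrophages held 181.85, 166.35, 188.47 and 187.42 TPM under IFN-γ and 222.07, 224.89, 214.01 and 209.22 TPM under IL-10. Both cytokine groups were far below M0 without overlap. The log2 difference from M0 was -1.92 (SE 0.045) for IFN-γ and -1.97 (SE 0.031) for IL-10. Between the non-phagocytic groups the difference was 0.05 on the log2 scale and -0.27 without scaling of the libraries, so their order depended on the scaling.

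Mmp12 also differed with uptake in IL-10 macrophages. Tconv-phagocytic IL-10 libraries held 71.67, 68.79, 70.51 and 67.8 TPM, and Treg-phagocytic IL-10 libraries 108.91, 115.65, 116.53 and 108.44 TPM. The 3 IL-10 groups did not overlap, in the order non-phagocytic, Treg, Tconv. Mmp12 was lower by -1.55 (SE 0.032) on the log2 scale after Tconv uptake and by -0.86 (SE 0.036) after Treg uptake, each against the same non-phagocytic libraries, and Treg- exceeded Tconv-phagocytic macrophages by 0.68 (SE 0.036). Within a single dye, by either reading of the labels, that last difference was 0.67 to 0.70. Under IFN-γ, Tconv-phagocytic libraries held 190.34, 152.02, 160.36 and 147.53 TPM and Treg-phagocytic libraries 176.44, 205.72, 210.39 and 246.04 TPM. These groups overlapped, with 1 Tconv library above the lowest Treg library, and the difference was 0.48 (SE 0.122). Its call was lost on leaving out any 1 of 6 of the 8 libraries, all but Tconv BV421-1 and Treg Ax647-1 (log2 0.39 to 0.58 over all 8). The same direction was seen for both cytokines, and the difference between them (-0.20) was not called.

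Mmp13, a collagenase that cleaves fibrillar collagens, followed Mmp12 at a lower level. M0 libraries held 9.84, 9.45, 9.92 and 10.18 TPM. The non-phagocytic libraries held 3.07, 3.71, 2.11 and 1.74 TPM under IFN-γ and 3.58, 4.41, 4.22 and 3.6 TPM under IL-10. All 8 lay below all of M0, by -1.36 (SE 0.183) and -1.13 (SE 0.08) on the log2 scale. Tconv-phagocytic IL-10 libraries held 1.68, 2.23, 1.99 and 2.05 TPM and Treg-phagocytic IL-10 libraries 1.43, 1.47, 1.9 and 1.6 TPM, all below the non-phagocytic ones, by -0.65 (SE 0.099) and -0.85 (SE 0.106). The phagocytic groups overlapped each other, unlike those of Mmp12. Treg differed from Tconv uptake by -0.20 (SE 0.107, not called), opposite in direction to Mmp12. Under IFN-γ the 3 groups overlapped, between 1.74 and 3.71 TPM. Over the 28 libraries, the log2 levels of Mmp12 and Mmp13 had a Pearson r of 0.90, which describes points that share their group and depth.

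Mmp12 and Mmp13 are neighbours on chromosome 9 (GRCm38, chr9:7344381-7369499 and chr9:7272514-7283331, both on the plus strand). Their upstream sequences are shown because both hold a match to the AP-1 site TGANTCA close to the start, together with that of Mmp8, the member of the same gene cluster whose levels went another way. The 250 bases before the RefSeq start (GRCm38.p6, plus strand, 5′ to 3′) are at chr9:7347124-7347373 for Mmp12, chr9:7272264-7272513 for Mmp13 and chr9:7558179-7558428 for Mmp8, and capitals mark the motif matches.
Mmp12: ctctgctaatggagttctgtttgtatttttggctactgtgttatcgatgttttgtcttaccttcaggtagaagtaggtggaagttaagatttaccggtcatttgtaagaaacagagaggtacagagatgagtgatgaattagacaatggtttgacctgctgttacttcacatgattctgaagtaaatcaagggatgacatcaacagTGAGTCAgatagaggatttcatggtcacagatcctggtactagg
Mmp13: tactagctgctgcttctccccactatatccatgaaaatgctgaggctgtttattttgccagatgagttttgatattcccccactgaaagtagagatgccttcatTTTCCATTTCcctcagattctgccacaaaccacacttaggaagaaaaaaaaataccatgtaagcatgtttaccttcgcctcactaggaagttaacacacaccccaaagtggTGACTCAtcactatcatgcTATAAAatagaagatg
Mmp8: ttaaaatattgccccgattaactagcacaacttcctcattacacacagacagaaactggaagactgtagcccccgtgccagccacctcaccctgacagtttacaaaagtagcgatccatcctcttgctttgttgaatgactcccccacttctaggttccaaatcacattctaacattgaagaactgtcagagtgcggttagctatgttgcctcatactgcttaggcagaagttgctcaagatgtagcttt
The Mmp12 match, TGAGTCA, lies at -44 to -38 and the Mmp13 match, TGACTCA, at -35 to -29, counted from the base before the start as -1. Mmp13 also has the TATA motif TATAAA at -16 to -11 and, on the minus strand, a match to the interferon-stimulated response element (ISRE) at -146 to -137. A search of both strands for these 3 motifs and for the STAT site TTCNNNGAA found no match in the windows of Mmp8, Mmp14, Timp1, Timp2, Timp3 and Adam8. Mmp9 and Mmp19 were not searched. Of 32851 RefSeq mouse promoter windows of this length, 6.75% held TGANTCA, 2.98% the ISRE, 12.4% TATAAA and 7.02% TTCNNNGAA. These are letter matches, and binding was not measured.

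A list of 21 genes for transcription factors known to regulate metalloproteinase genes, only some of which bind the motifs above, had 19 that passed the filter. In non-phagocytic macrophages under IFN-γ against IL-10, 7 rose and 8 fell (limma adjusted p under 0.05), where 26.5% of all genes rose and 24.3% fell. Fosl2, a component of AP-1, was at 7.22 and 34.9 TPM (log2 -1.86, limma adjusted p 5.46e-06). From M0 to non-phagocytic IL-10 macrophages, 9 rose and 1 fell, where 13.8% of all genes rose and 13% fell. Fosl2 rose from 16.3 TPM ± 0.980 (SD, n = 4) to 34.9 TPM ± 1.29 (SD, n = 4), with a limma adjusted p of 7.47e-07. Stat3, which carries the IL-10 signal, rose from 54.3 to 112 TPM (log2 1.02, limma adjusted p 8.79e-07). The Stat3 mean was also above that of M0 in non-phagocytic IFN-γ libraries, at 79.95 TPM, so a higher level was not particular to IL-10. Fosl2 was below M0 under IFN-γ (log2 -0.82, limma adjusted p 0.00159) and above it under IL-10. The other AP-1 genes that passed the filter differed in their order over M0, non-phagocytic IFN-γ and non-phagocytic IL-10 libraries. Their means in these groups were 10.2, 6.0 and 5.3 TPM for Fosb and 284, 175 and 307 TPM for Fos. Those of Jun were 110, 102 and 115 TPM, of Junb 289, 307 and 426 TPM and of Jund 313, 307 and 309 TPM. Whether AP-1 has a part in the levels of Mmp12 and Mmp13 was not tested.

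Mmp8, the collagenase best known from neutrophil granules, was highest under IL-10. M0 libraries held 6.61, 6.18, 6.8 and 5.59 TPM, non-phagocytic IFN-γ libraries 4.82, 5.98, 6.09 and 4.27 TPM, and non-phagocytic IL-10 libraries 19.22, 21.11, 20 and 18.98 TPM. The IL-10 libraries lay above all of the other libraries, while M0 and IFN-γ overlapped. The log2 difference was 1.49 (SE 0.069) from M0 to IL-10 and -1.45 (SE 0.121) for IFN-γ against IL-10. The neutrophil markers had lower sums in non-phagocytic IL-10 libraries (33.07 to 39.09 TPM) than in M0 (46.98 to 52.95 TPM) and non-phagocytic IFN-γ libraries (51.22 to 69.58 TPM). Single markers differed in order: S100a9 was at 19.2, 27.3 and 38.5 TPM in these groups and Ltf at 1.92, 1.73 and 0.535 TPM. The part of neutrophil transcripts in the level of Mmp8 was not tested.

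With uptake, Mmp8 was lower under IL-10 and at or above its level without uptake under IFN-γ. Tconv-phagocytic IL-10 libraries held 13.73, 14.12, 15.33 and 13.73 TPM and Treg-phagocytic IL-10 libraries 16, 15.95, 15.09 and 14.7 TPM, both below the non-phagocytic ones (log2 -0.37, SE 0.057, and -0.26, SE 0.058). The call for Treg was lost without non-phagocytic library 2 or 3 or Treg BV421-2 (log2 -0.28 to -0.23 over all 8). Under IFN-γ, Tconv-phagocytic libraries held 6.12, 5.7, 7.68 and 5.39 TPM and Treg-phagocytic libraries 8.6, 8.6, 9.01 and 7.07 TPM. The Treg-phagocytic libraries lay above all non-phagocytic IFN-γ libraries (log2 0.65, SE 0.173), but that difference was not called. The opposite movement of Treg uptake in the 2 cytokines was not tested as an interaction.

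Mmp14 and Mmp19 were higher than in M0 under IL-10 and lower under IFN-γ. Mmp14 encodes a membrane-bound metalloproteinase that cleaves collagen at the cell surface and activates the Mmp2 precursor in a complex with Timp2, and Mmp19 encodes a secreted enzyme with basement membrane substrates. For Mmp14, M0 libraries held 14.92, 15.95, 15.71 and 16.1 TPM, non-phagocytic IFN-γ libraries 7.36, 10.83, 9.28 and 7.8 TPM and non-phagocytic IL-10 libraries 47.88, 40.49, 44.16 and 43.82 TPM. These 3 groups did not overlap, and the log2 difference from M0 was -0.50 (SE 0.122) under IFN-γ and 1.41 (SE 0.056) under IL-10. For Mmp19, the values were 22.58, 26.59, 23.73 and 23.91 TPM in M0, 9.19, 10.83, 5.8 and 8.5 TPM under IFN-γ and 45.27, 46.47, 44.19 and 43.64 TPM under IL-10. These too were separate, with differences from M0 of -1.14 (SE 0.164) and 0.85 (SE 0.053).

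After uptake of T cells under IL-10, Mmp14 was higher and Mmp19 differed little. Mmp14 was at 70.99, 69.27, 66.56 and 70.64 TPM in Tconv-phagocytic and 57.52, 63.18, 55.68 and 56.17 TPM in Treg-phagocytic IL-10 libraries. Every phagocytic library exceeded every non-phagocytic one, by 0.72 (SE 0.05) for Tconv and 0.47 (SE 0.058) for Treg on the log2 scale. Treg- were below Tconv-phagocytic libraries by -0.25 (SE 0.046), the reverse of Mmp12, but this call was lost on leaving out any 1 of 6 of the 8 libraries (log2 -0.29 to -0.23), all but Tconv Ax647-1 and Treg Ax647-2. Mmp19 was at 42.67, 42.86, 41.3 and 38.78 TPM after Tconv uptake and 38.24, 39.38, 36.52 and 38.5 TPM after Treg uptake, lower than without uptake by -0.03 (SE 0.043) and -0.15 (SE 0.04). The second of these was called, and the call was lost when any 1 of the 8 libraries was left out (log2 -0.16 to -0.13). Under IFN-γ the phagocytic libraries ranged from 8.25 to 13.18 TPM for Mmp14 and from 6.28 to 9.33 TPM for Mmp19, overlapping the non-phagocytic ones.

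**Figure D2:**
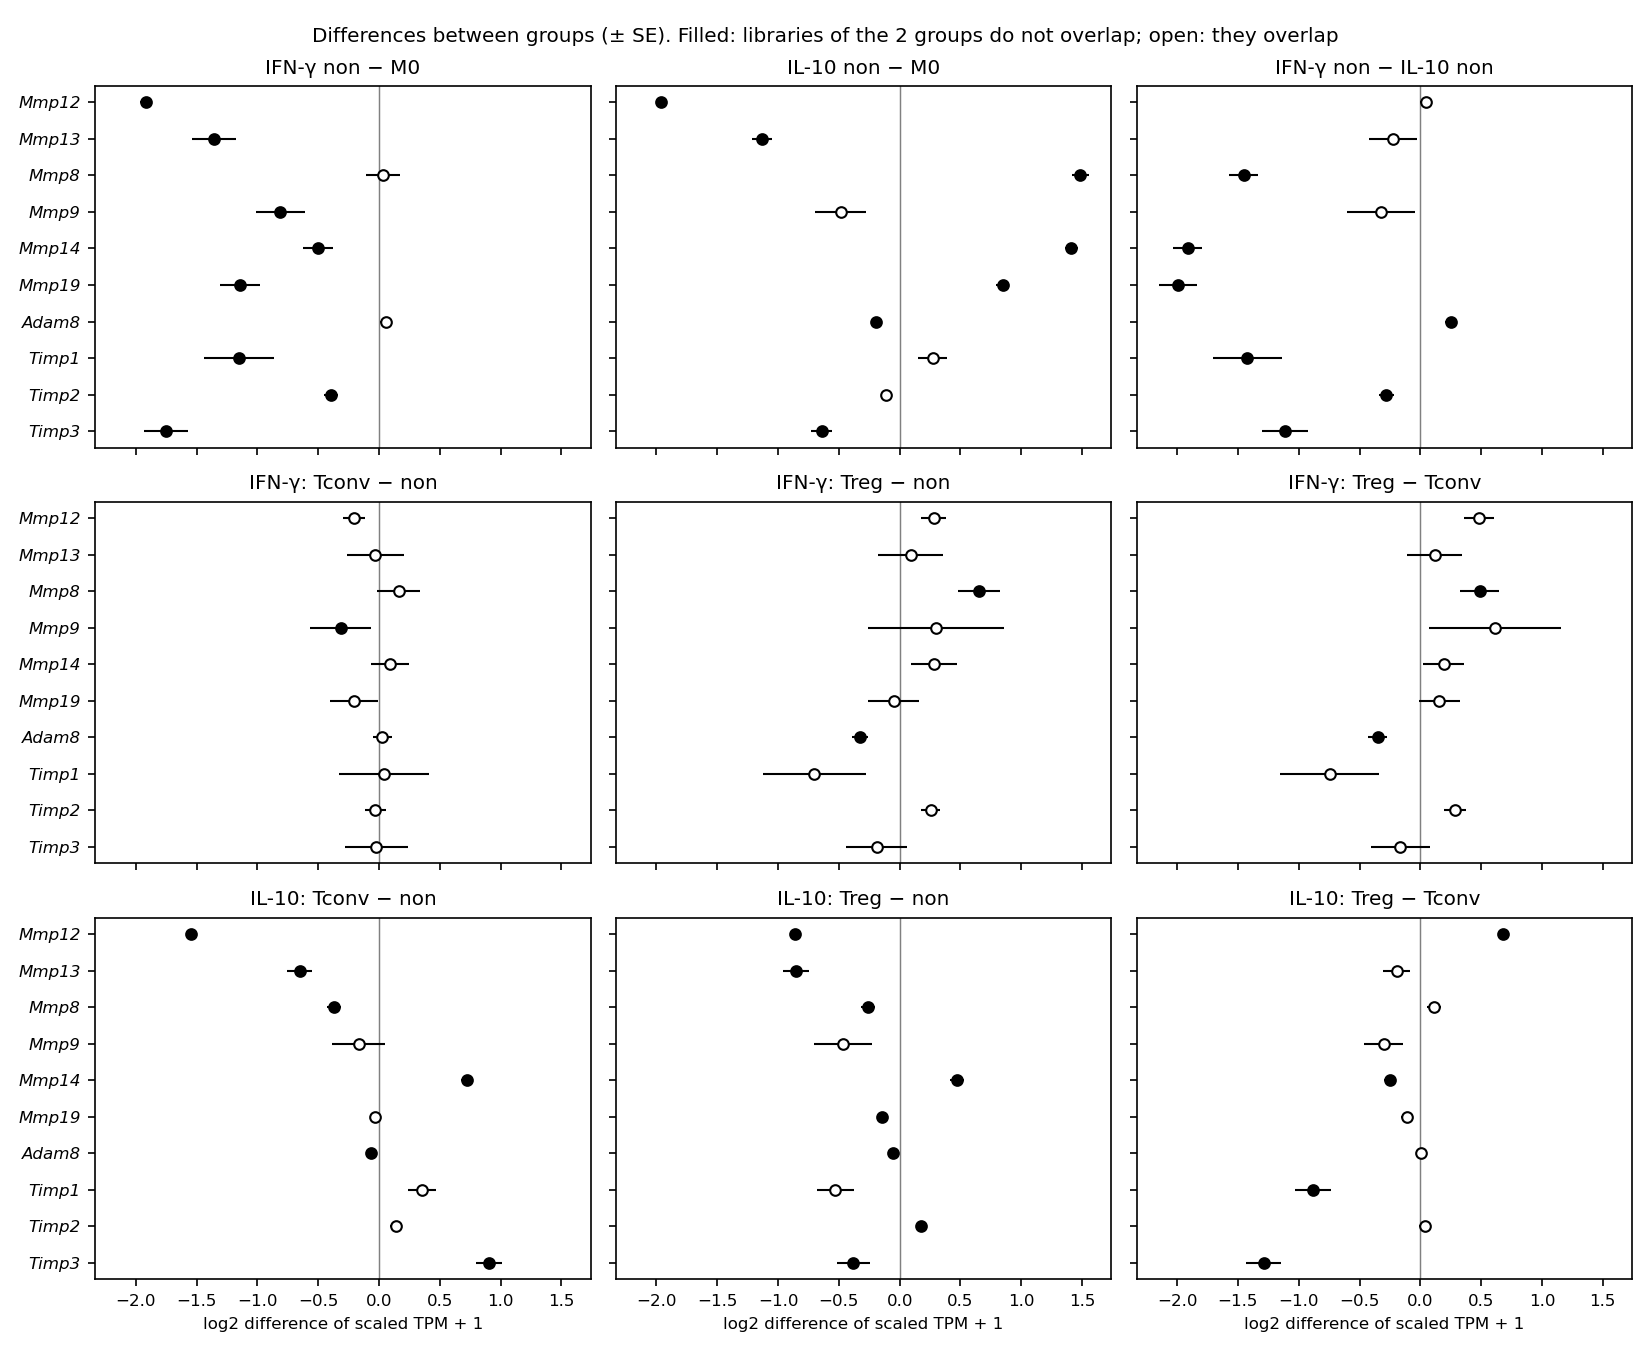
Log2 difference of scaled TPM + 1 (± SE of the limma fit) for the 10 genes in 9 comparisons of 4 against 4 libraries; filled points mark groups whose libraries do not overlap, open points groups that do. Mmp12 and Mmp13 are left of 0 in both comparisons with M0, Mmp8, Mmp14 and Mmp19 are right of 0 from M0 to IL-10, and in IL-10 macrophages Mmp12 and Mmp14 move in opposite directions with uptake (-1.55 and 0.72 for Tconv).

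Mmp9, gelatinase B, was scarce. M0 libraries held 1.79, 1.89, 2.24 and 2.25 TPM. Non-phagocytic libraries held 0.38, 0.34, 0.47 and 1.17 TPM under IFN-γ and 0.54, 0.92, 2.47 and 1.06 TPM under IL-10. All 4 IFN-γ libraries were below all of M0 (log2 -0.81, SE 0.205, a call lost with 1 model of all 28 libraries, with and without variance weights), whereas 1 IL-10 library was above it (log2 -0.49, SE 0.212). Phagocytic IL-10 libraries held 0.55, 1.05, 0.88 and 0.97 TPM after Tconv and 0.18, 0.53, 0.9 and 0.44 TPM after Treg uptake. Under IFN-γ the values were 0.33, 0.32, 0.29 and 0.18 TPM after Tconv uptake, about 2 to 3 estimated reads a library, and 0.35, 0, 0.48 and 5.16 TPM after Treg uptake. The single value of 5.16 TPM in Treg BV421-2, about 39 estimated reads, sets the mean of that group, and without that library its log2 difference from Tconv was -0.0041 in place of 0.61.

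Adam8, a membrane-bound relative that sheds adhesion molecules and receptors from leukocytes, was abundant in all groups. M0 libraries held 371.91, 371.35, 362.01 and 370.56 TPM, non-phagocytic IFN-γ libraries 328.17, 330.19, 286.59 and 305.15 TPM and non-phagocytic IL-10 libraries 321, 325.22, 330.71 and 325.72 TPM. The IFN-γ and IL-10 libraries overlapped in TPM, and their log2 difference of 0.25 (SE 0.052) turned to -0.06 without scaling. Against M0, the difference was -0.20 (SE 0.022, called) for IL-10. For IFN-γ it was 0.06 (SE 0.052, not called), and -0.24 without scaling. Treg uptake under IFN-γ gave the lowest level of all, at 223.67, 243.18, 236.17 and 242.45 TPM against 301.03, 376.25, 331.08 and 309.13 TPM after Tconv uptake. Those groups did not overlap, with a difference of -0.35 (SE 0.077), and -0.43 to -0.27 within a dye. Against non-phagocytic IFN-γ macrophages it was -0.32 (SE 0.067), a call lost without non-phagocytic library 1 or 2 (-0.37 to -0.29 over all 8). Under IL-10, Treg- and Tconv-phagocytic libraries overlapped, at 294.65, 302.17, 285.77 and 298.28 TPM after Treg and 300.06, 294.31, 280.71 and 300.1 TPM after Tconv uptake (log2 0.01, SE 0.03). Both groups lay below non-phagocytic IL-10 libraries without overlap, by -0.06 (SE 0.025) for Treg and -0.07 (SE 0.028) for Tconv. These 2 differences were called only without scaling. The difference between the cytokines in the Treg against Tconv contrast was -0.36 (SE 0.084), and it was called.

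Timp2 was the main inhibitor transcript. It supplied 95.9% ± 0.303 (SD, n = 4) of the summed TPM of the 3 TIMP genes in M0, 98.4% ± 0.842 (SD, n = 4) in non-phagocytic IFN-γ and 95.6% ± 0.472 (SD, n = 4) in non-phagocytic IL-10 macrophages. Its level was 222.72, 236.84, 226.92 and 237.73 TPM in M0, 131.4, 158.53, 142.82 and 138.71 TPM in non-phagocytic IFN-γ and 230.87, 208.52, 212.11 and 212.32 TPM in non-phagocytic IL-10 libraries. IFN-γ libraries lay below the others, by -0.39 (SE 0.059) against M0 and -0.28 (SE 0.06) against IL-10. After uptake, IL-10 libraries held 208.65 to 234.09 TPM (Tconv) and 220.74 to 239.24 TPM (Treg), and IFN-γ libraries 128.04 to 157.53 TPM (Tconv) and 142.27 to 177.5 TPM (Treg). The called difference for Treg uptake in IL-10 macrophages was 0.17 (SE 0.04) and 0.09 without scaling, and it was lost on leaving out non-phagocytic library 2, 3 or 4, Treg Ax647-2 or Treg BV421-2 (log2 0.15 to 0.20).

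Timp1, a secreted inhibitor induced in inflammation and repair, was low in all groups and had its highest mean in Tconv-phagocytic IL-10 macrophages. M0 libraries held 5.61, 7.68, 5.92 and 7.01 TPM, non-phagocytic IFN-γ libraries 1.12, 1.02, 3.92 and 2.33 TPM and non-phagocytic IL-10 libraries 9.45, 9.01, 7.54 and 6.93 TPM. M0 and IL-10 overlapped (log2 0.27, SE 0.119, not called), and IFN-γ lay below both without overlap, by -1.15 (SE 0.286) and -1.42 (SE 0.284). Tconv-phagocytic IL-10 libraries held 11.03, 9.84, 11.53 and 8.47 TPM and Treg-phagocytic ones 6.95, 4.79, 4.04 and 4.67 TPM. All Treg libraries were below all Tconv libraries, by -0.88 (SE 0.148), and 3 of them were below all non-phagocytic ones (log2 -0.53, SE 0.15, not called). The Treg against Tconv call was lost on leaving out any 1 of 6 of the 8 libraries (log2 -1.02 to -0.80), all but Tconv Ax647-2 and Treg Ax647-1. Under IFN-γ the values were 3, 1.87, 3.01 and 0.86 TPM after Tconv and 0, 1.86, 1.15 and 0.63 TPM after Treg uptake. A single Timp1 read is worth 0.398 to 0.868 TPM in IFN-γ libraries, so the Treg libraries rest on 0 to 2 estimated reads each.

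Timp3, an inhibitor that binds to the matrix and also blocks several ADAM proteases, was almost confined to M0 and IL-10 libraries. M0 libraries held 3.11, 3.43, 3.49 and 3.35 TPM. Non-phagocytic IL-10 libraries held 1.84, 1.78, 1.91 and 1.55 TPM, those after Tconv uptake 5, 3.66, 3.71 and 3.96 TPM and those after Treg uptake 1.43, 0.63, 1.14 and 1.01 TPM. The 4 groups were separate, in the order Tconv, M0, non-phagocytic, Treg. On the log2 scale, Tconv uptake was higher than no uptake by 0.91 (SE 0.106), Treg uptake differed from none by -0.38 (SE 0.135, not called) and from Tconv uptake by -1.29 (SE 0.143). None of the 12 IFN-γ libraries reached 1 TPM: they held 0.46, 0.21, 0.08 and 0 TPM without uptake, 0, 0.41, 0.23 and 0.06 TPM after Tconv uptake and 0, 0, 0 and 0.17 TPM after Treg uptake. With at most 6 estimated reads a library, a change with uptake under IFN-γ was not detectable at this depth.

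Stromal marker genes moved with Timp3 and, in part, with Timp1. The list of 10 holds the collagens Col1a1, Col1a2 and Col3a1 with Dcn, Lum, Pdgfra, Pdgfrb, Acta2, Sparc and Postn, and its summed level was 121 to 139 TPM in M0, 87.0 to 91.6 TPM in non-phagocytic IL-10, 158 to 170 TPM in Tconv-phagocytic IL-10 and 29.6 to 33.7 TPM in Treg-phagocytic IL-10 libraries. IFN-γ libraries held 7.66 to 12.4 TPM without uptake, 3.62 to 8.02 TPM after Tconv and 3.32 to 7.74 TPM after Treg uptake. Lum was at 0 in all 4 libraries of each group other than Tconv-phagocytic IFN-γ, and Postn in Treg-phagocytic IFN-γ. Of the 7 stromal markers that passed the filter, 7 fell in Treg- against Tconv-phagocytic IL-10 macrophages, 6 rose with Tconv uptake under IL-10 and 6 fell with Treg uptake under IL-10 (limma). The shares of all genes in the same comparisons and directions were 0.912%, 4.36% and 4.27%. Mmp12 did not follow this order, with its lowest level in Tconv-phagocytic IL-10 libraries. Mmp14 followed it in being highest there and lower after Treg than Tconv uptake, but not in M0, which was second in stromal markers and had 15.7 TPM of Mmp14, below all IL-10 groups, nor in Treg-phagocytic IL-10 libraries, which were above the non-phagocytic ones. The part that stromal transcripts have in the levels of Timp1 and Timp3 was not tested, and in bulk RNA fewer cells of a type and less RNA per cell cannot be told apart.

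**Figure D3:**
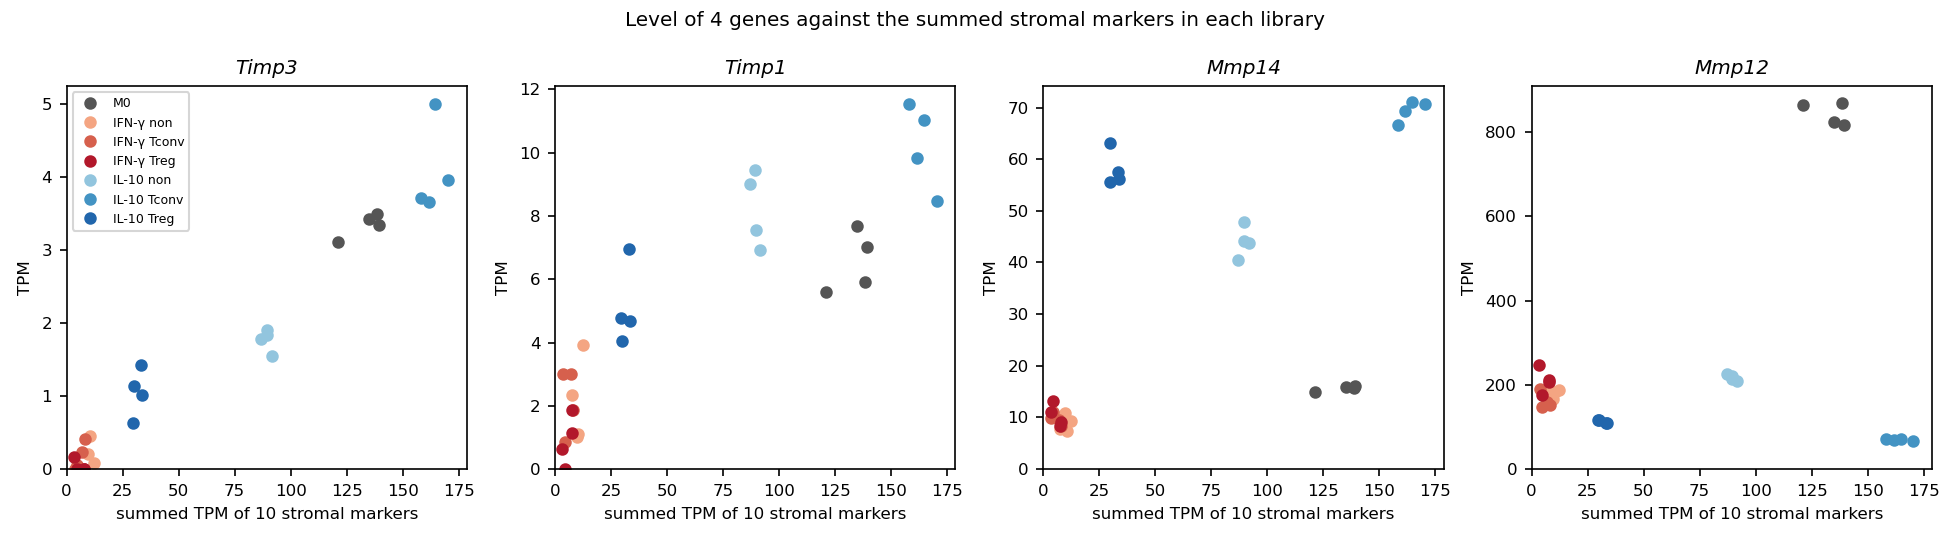
TPM of Timp3, Timp1, Mmp14 and Mmp12 (vertical axes) against the summed TPM of 10 stromal markers (horizontal axis) in each of the 28 libraries. Timp3 rises in the order of the marker sum from IFN-γ (under 0.5 TPM) to Tconv-phagocytic IL-10 libraries (3.66 to 5 TPM), whereas Mmp14 in M0 (14.9 to 16.1 TPM) is below all IL-10 libraries and Mmp12 is lowest in the libraries with the highest sum.

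Of 16 genes for matrix proteins on which these enzymes act, 15 passed the filter. Their orders over the groups differed: Col1a1, Col1a2 and Bgn were highest in Tconv-phagocytic IL-10 macrophages, Col3a1 and Col6a1 in M0 and Fn1 in non-phagocytic IL-10 macrophages. Between Treg- and Tconv-phagocytic IL-10 macrophages 10 fell and 1, Spp1, rose, beside 0.912% and 0.515% of all genes. Col1a1 was at 6.09 TPM ± 0.627 (SD, n = 4) after Treg and 34.0 TPM ± 0.816 (SD, n = 4) after Tconv uptake (log2 -2.30, limma adjusted p 3.9e-07). Col1a2 (log2 -2.16, limma adjusted p 2.74e-05) and the proteoglycan gene Bgn (log2 -1.75, limma adjusted p 0.000986) fell with it. Against no uptake, Tconv uptake under IL-10 came with 8 higher and 1 lower substrate gene, among them Col5a1 (1.51 to 3.91 TPM, log2 1.00, limma adjusted p 0.00159), and Treg uptake with 10 lower, among them Col6a1 (5.12 to 1.2 TPM, log2 -1.39, limma adjusted p 0.000101). Of all genes, 4.36% were higher and 1.73% lower after Tconv uptake, and 4.27% were lower after Treg uptake. In non-phagocytic IFN-γ against IL-10 macrophages 13 were lower and 0 higher, with Fn1, fibronectin, at 3.24 and 34.6 TPM (log2 -2.88, limma adjusted p 8.64e-06). In that comparison 24.3% of all genes were lower and 26.5% higher. Spp1, osteopontin, stood apart from the collagens, with 2293 TPM ± 41.8 (SD, n = 4) in non-phagocytic IL-10 and 1254 TPM ± 38.5 (SD, n = 4) in M0 libraries (log2 0.85, limma adjusted p 1.65e-08). Several collagens are also stromal markers, so these counts and the marker sums are not separate observations.

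The plasminogen system activates metalloproteinase precursors, and 8 of its 11 listed genes passed the filter. Between non-phagocytic IFN-γ and IL-10 macrophages 3 rose and 2 fell, beside 26.5% and 24.3% of all genes. Plau, the urokinase activator, was at 58.7 TPM under IFN-γ and 12.3 TPM under IL-10 without uptake (log2 2.46, limma adjusted p 6.61e-08).

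Lysosomal cathepsins, the other large protease group of macrophages, and their cystatin inhibitors were all expressed, 10 of 10. Between Treg- and Tconv-phagocytic IFN-γ macrophages 7 rose and 0 fell, among them Ctsl (1535 and 1262 TPM, log2 0.41, limma adjusted p 0.00149) and Ctss (log2 0.32, limma adjusted p 0.00149). In this contrast 5.19% of all genes rose and 7.38% fell. Under IL-10 the same contrast called 0 of 10, beside 1.43% of all genes, and 3 at an unadjusted p under 0.05 (limma). The median of all genes in the IFN-γ contrast was 0.04 with scaling and -0.06 without. Cst7, the cystatin F gene, was at 8.78 TPM ± 2.31 (SD, n = 4) in non-phagocytic IFN-γ and 0.88 TPM ± 0.537 (SD, n = 4) in M0 libraries (log2 2.59, limma adjusted p 3.07e-05). T cell marker sums differed in the same direction, at 474.2 to 767.8 TPM and 186.8 to 272 TPM in these groups. The part of T cell transcripts in the level of Cst7 was not tested. Of 11 genes for activation and clearance of metalloproteinases, 8 passed the filter. Furin, which cleaves the Mmp14 precursor, was at 34.1 TPM under IFN-γ and 82.1 TPM under IL-10 (log2 -0.93, limma adjusted p 7.21e-07), and Lrp1, an uptake receptor for protease complexes, at 113 and 296 TPM (log2 -1.08, limma adjusted p 1.15e-06). Itgb3, an integrin subunit, was lower in IL-10 than in M0 macrophages without uptake (0.975 and 3.76 TPM, log2 -1.23, limma adjusted p 1.53e-05), and its partner subunit Itgav was higher in Treg- than in Tconv-phagocytic IFN-γ macrophages (27.7 and 19.7 TPM, log2 0.60, limma adjusted p 0.0111).

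Of the 19 regulator genes tested, 4 rose and 3 fell between Treg and Tconv uptake under IFN-γ, where 12.6% of all genes were called. Irf1, an interferon-induced transcription factor, was at 105 TPM ± 14.4 (SD, n = 4) after Treg and 244 TPM ± 39.3 (SD, n = 4) after Tconv uptake (log2 -1.09, limma adjusted p 0.00142), and Stat3 at 39.2 and 79.2 TPM (log2 -0.87, limma adjusted p 0.00103). Against non-phagocytic IFN-γ macrophages, Treg uptake came with 1 higher and 4 lower regulator genes, among them Stat3 (log2 -0.93, limma adjusted p 0.00122) and Irf1 (log2 -0.85, limma adjusted p 0.00191). Of all genes, 2.74% were higher and 5.18% lower in that comparison. Under IL-10, Treg against Tconv uptake called 1 regulator, Ets1 (10.7 and 7.29 TPM, log2 0.50, limma adjusted p 0.0201), where 1.43% of all genes were called. The T cell markers moved the same way, with sums of 251.9 to 272.4 TPM after Treg and 176.7 to 212.6 TPM after Tconv uptake, and Ets1 was highest in the IFN-γ groups, as they were. Their part in it was not tested. Bgn was lower after Treg uptake than without uptake under IFN-γ (0.41 and 3.96 TPM, log2 -1.84, limma adjusted p 0.0188), a call lost in 2 of 15 alternatives, one of them without Treg library BV421-1 (highest adjusted p 0.0616 over its alternatives).

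The members called, at a limma adjusted p under 0.05 over all tested genes, are given beside the share of all genes called. Nothing is read from these counts, since the members were picked on these data. Non-phagocytic IFN-γ against IL-10 called 7 members (1 higher, 6 lower), beside 50.8% of all genes (26.5% higher, 24.3% lower), and its 2 groups did not overlap for 7 members and 48.8% of all genes. Non-phagocytic IFN-γ against M0 called 8 members (0 higher, 8 lower), beside 52.7% of all genes (27.4% higher, 25.4% lower), and its 2 groups did not overlap for 8 members and 50.4% of all genes. Non-phagocytic IL-10 against M0 called 7 members (3 higher, 4 lower), beside 26.7% of all genes (13.8% higher, 13% lower), and its 2 groups did not overlap for 7 members and 29.2% of all genes. The members called lower under IFN-γ against both others were Mmp14, Mmp19 and the 3 TIMP genes. Under IL-10, Tconv against no uptake called 5 members (2 higher, 3 lower), beside 6.09% of all genes (4.36% higher, 1.73% lower), and its 2 groups did not overlap for 6 members and 13.8% of all genes. Treg against no uptake under IL-10 called 6 members (2 higher, 4 lower), beside 11.3% of all genes (6.98% higher, 4.27% lower), and its 2 groups did not overlap for 8 members and 18% of all genes. Treg against Tconv under IL-10 called 4 members (1 higher, 3 lower), beside 1.43% of all genes (0.515% higher, 0.912% lower), and its 2 groups did not overlap for 4 members and 8.85% of all genes. Mmp12 was called in each of these 3, lower than without uptake and higher for Treg than Tconv. Under IFN-γ, Tconv against no uptake called 0 members (0 higher, 0 lower), beside 0.00736% of all genes (0% higher, 0.00736% lower), and its 2 groups did not overlap for 1 members and 3.53% of all genes. Treg against no uptake under IFN-γ called 1 members (0 higher, 1 lower), beside 7.92% of all genes (2.74% higher, 5.18% lower), and its 2 groups did not overlap for 2 members and 15.6% of all genes. Treg against Tconv under IFN-γ called 2 members (1 higher, 1 lower), beside 12.6% of all genes (5.19% higher, 7.38% lower), and its 2 groups did not overlap for 2 members and 19.1% of all genes. At an unadjusted p under 0.05, limma gave 1 member for Tconv uptake under IFN-γ. The difference of the Treg against Tconv contrast between the cytokines called 2 members (1 higher, 1 lower), beside 13.5% of all genes (5.64% higher, 7.81% lower). These were Adam8 and Timp3, and for Timp3 the IFN-γ libraries were at or near 0, so its value restates the IL-10 difference and does not bear on uptake under IFN-γ. Comparisons that share a group, such as both against M0 or both against no uptake, share those libraries.

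The 17 other matrix metalloproteinase genes were mostly silent. Of these, 5 passed the filter and 4 were at 0 in all 28 libraries. Mmp2, gelatinase A and the target of Mmp14, was at 2.95 TPM ± 0.101 (SD, n = 4) in M0, 2.26 TPM ± 0.493 (SD, n = 4) in non-phagocytic IL-10 and 0.445 TPM ± 0.175 (SD, n = 4) in non-phagocytic IFN-γ libraries. Under IL-10 it was at 3.94 TPM ± 0.225 (SD, n = 4) after Tconv and 0.82 TPM ± 0.110 (SD, n = 4) after Treg uptake (log2 -1.41, limma adjusted p 5.32e-05), again in the order of the stromal markers, whose part was not tested. Mmp23 was listed at 0 in non-phagocytic IFN-γ libraries and at a mean of 0.685 TPM in IL-10 ones. Mmp11 and Mmp28 were low, with 0.96 and 1.33 TPM in non-phagocytic IFN-γ macrophages, and were not called between the non-phagocytic cytokine groups. Among 6 further inhibitor genes only Spock2 passed, higher under IFN-γ than IL-10 without uptake (1.5 and 0.265 TPM, log2 1.06, limma adjusted p 0.00465). T cell marker sums were also higher under IFN-γ in these groups (474.2 to 767.8 and 154.6 to 168.4 TPM), and their part in the level of Spock2 was not tested.

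Among 12 other ADAM genes, 7 passed the filter. Of these, 5 were called between non-phagocytic IFN-γ and IL-10 macrophages, where 50.8% of all genes were. Adam9 was at 104 TPM in non-phagocytic IL-10, 61.1 TPM in M0 and 33.2 TPM in non-phagocytic IFN-γ macrophages, the order of Mmp14 and Mmp19, with a log2 difference of 0.74 between IL-10 and M0 (limma adjusted p 1.81e-07). Adam10, a major sheddase, was at 17.2 TPM under IFN-γ and 39.3 TPM under IL-10 (log2 -0.85, limma adjusted p 5.44e-06). Adam17, which releases TNF from the cell surface, showed 44.2 and 54.6 TPM in the same groups and was not called (log2 0.01, limma adjusted p 0.925). Adam19 was higher under IFN-γ (3.50 and 2.02 TPM, log2 0.78, limma adjusted p 0.00604). With uptake, Adam15 rose in Treg- against Tconv-phagocytic IFN-γ macrophages (112 and 92.6 TPM, log2 0.38, limma adjusted p 0.033). In each of the 3 uptake contrasts under IL-10, limma called 0 of 7, with at most 1 at an unadjusted p under 0.05. Of all genes, 1.43% were called there for Treg against Tconv, 11.3% for Treg against no uptake and 6.09% for Tconv against no uptake. Of 19 ADAMTS genes, 4 passed the filter, among them Adamts10, at 32.2 TPM under IFN-γ and 22.6 TPM under IL-10 without uptake (log2 0.80, limma adjusted p 0.000104).

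Mmp12, Mmp13 and Mmp8 lie in a cluster of 10 Mmp genes on chromosome 9 that spans 427 kb of GRCm38 with 0 other protein-coding genes between them. Its expression was patchy: 4 genes reached a group mean of 1 TPM and 4 were at 0 in all 28 libraries. Mmp27 lies next to Mmp8 (chr9:7571396-7581885 and chr9:7558456-7568485) and had group means of 9.97 TPM in M0, 5.21 TPM in non-phagocytic IFN-γ and 18.7 TPM in non-phagocytic IL-10 macrophages. Like Mmp8 it was higher under IL-10, with a log2 difference of -1.42 for IFN-γ against IL-10 (limma adjusted p 0.000259) and of 0.82 for IL-10 against M0 (limma adjusted p 2.55e-05). Mmp13 and Mmp12, at the other end, were highest in M0. Mmp3 and Mmp10, which lie between, had group means of at most 0.433 and 0.0475 TPM.

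**Figure D4:**
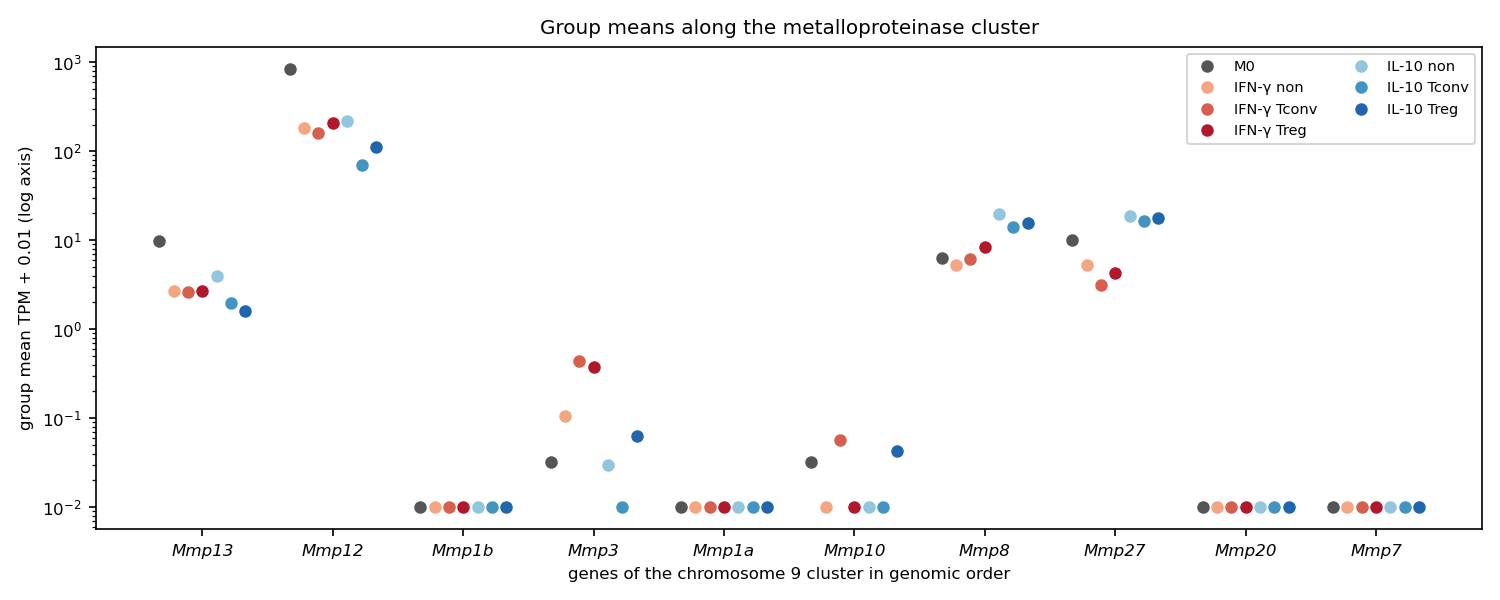
Group mean TPM + 0.01 (log axis; each point is the mean of 4 libraries) of the 10 genes of the chromosome 9 cluster, in genomic order at equal spacing. Mmp13 and Mmp12 at the left are highest in M0, Mmp8 and Mmp27 are highest in the IL-10 groups, and points at the bottom are genes at 0.

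The other members lie apart from each other: Mmp9 at chr2:164940780-164955850, Mmp14 at chr14:54431612-54445364, Mmp19 at chr10:128790910-128800824, Timp1 at chrX:20870166-20874735, Timp2 at chr11:118301069-118355740, Timp3 at chr10:86300372-86349506 and Adam8 at chr7:139978932-139992562 (GRCm38, whole gene spans). Of the members, 5 overlap a gene on the opposite strand (Mmp12, Mmp19, Timp1, Timp3 and Adam8) and Timp2 overlaps Cep295nl (0 to 1.03 TPM) on its own strand. Whether the quantification used strand is not given in the sources used here. Mmp1b, which overlaps Mmp12, was at 0 in all 28 libraries. Timp1 lies within Syn1 (0.35 to 3.59 TPM) and Timp3 within Syn3 (0 to 1.11 TPM), so the low values of Timp1 and Timp3 under IFN-γ are of the size of those of the overlapping genes. Tmem198b, which overlaps Mmp19, was at 5.93 to 16.6 TPM, of the size of Mmp19 under IFN-γ.

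The genes whose log2 levels were most like those of each member over the 28 libraries, among at least 9407 candidates, are given by Pearson r. The 28 points fall into 7 groups and share library and depth, so these are descriptions. Mmp12 was most like Lpl (0.96), the lipoprotein lipase gene, Cd36 (0.94), a fatty acid and lipoprotein receptor, and Mamdc2 (0.93). Mmp13 was most like Angptl2 (0.92), Mmp12 (0.90) and Ptgir (0.90). Mmp14 was most like Pgk1 (0.98) and Tpi1 (0.98), which encode glycolytic enzymes, and Pltp (0.98), and Mmp19 most like Rab11fip5, Hsd3b7 and Cltc (each 0.98). Mmp8 was most like Ccl6 (0.94), Sirpb1c (0.94) and Bin2 (0.93). Timp3 was most like the matrix genes Loxl2 (0.98), Col1a1 (0.97) and Col12a1 (0.97), and Timp1 like Bgn (0.91), Fn1 (0.89) and Ccn2 (0.89). Timp2 was most like Adcy3 (0.91), Chst12 (0.89) and Cstf2t (0.89), and Adam8 like Pacs2 (0.91), Clcn7 (0.90) and Lonrf3 (0.90). Mmp9 had no close match, with at most 0.74 for Capn5, followed by Elp5 (0.73) and Stradb (0.73). Among the members, Mmp14 and Mmp19 had an r of 0.90, Mmp8 and Mmp14 of 0.84 and Timp1 and Timp3 of 0.82.

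All 10 members passed the filter of at least 1 TPM in at least 4 libraries, but not in the same way. Mmp9 reached 1 TPM in 9 libraries, 4 of them M0, 2 IFN-γ and 3 IL-10, Timp3 in 15, none of them IFN-γ, and Timp1 in 25. The other 7 reached it in all 28.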

How the data were processed

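RNA-seq values of 28 mouse macrophage libraries in 7 groups of 4 were used, grouped by their titles. The values the authors deposited are TPM per Ensembl gene ID with 2 decimals. The reads were processed with STAR and RSEM on mm10, per the submitters' processing notes, with versions not given in the sources used here. Of 55487 gene IDs, 55141 matched a symbol and 346 did not. No 2 of the 378 pairs of libraries were identical. The members and all gene lists were chosen with earlier results of these data known.

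The design assumed counts. Because the files hold TPM, limma 3.58.1 (R 4.3.3) was run on the log2 of scaled TPM plus a pseudocount of 1, with a mean-variance trend, on the 8 libraries of the groups compared, because the spread of the IFN-γ groups was larger than that of the others. Fold changes of low genes are understated on this scale. The scaling factor was a trimmed mean of log2 ratios (30% of ratios at each end, 5% of levels). The filter kept 13631 genes that reached 1 TPM in 4 or more libraries, and genes at 0 in every library of a fit were dropped from it. Calls are at a Benjamini-Hochberg adjusted p under 0.05. Scaling moved the median of all genes of non-phagocytic IFN-γ macrophages against IL-10 from -0.26 to 0.01 on the log2 scale and against M0 from -0.24 to 0.00, and all differences are relative to it.

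Total counts are unknown. Relative depth was read from 14527 genes with 1 transcript of 500 to 2000 nt (GENCODE vM21, GRCm38), where 88.7% to 91.9% of low values came out whole to 0.15 reads, where chance would give 30%. Estimated reads come from it and cover counting error only. Coordinates are from GENCODE vM21 and upstream sequences from RefSeq (GRCm38.p6). Simulated data with known changes were used to check the fits, with noise independent between libraries, so shared technical spread was not covered.

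Of the listed genes that are no member or cell marker, those named in each comparison were the up to 4 called ones with the largest difference and a mean of at least 1 TPM, with others named as examples after their values were seen. Some genes the rule names are not reported here. The dye of the antibody in the titles disagrees with that in the library names for all Treg libraries. Alternatives were another pseudocount, no filter, 2 other scalings, a model of all 28 libraries without and with a variance weight per group, replicate blocks and leaving out each library. Values within a dye were added after seeing the data. Libraries with the same replicate number deviated together weakly or not at all.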

Additional observations from a re-analysis of the deposited data

Results flagged for a closer look

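Mmp8 differed between non-phagocytic and Treg-phagocytic macrophages in opposite directions, by 0.65 on the log2 scale under IFN-γ and by -0.26 under IL-10, with all 4 libraries of one group on the same side of all 4 of the other in each. The difference between the cytokines was not tested.

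Single libraries stood away from the other 3 of their group in 5 of 70 sets of 4 libraries, and chance flags about 1 in 20 groups. Mmp9 was at 1.17 TPM in non-phagocytic IFN-γ library 4, against 0.34 to 0.47 TPM in the others, and at 5.16 TPM in Treg-phagocytic IFN-γ library BV421-2, against 0 to 0.48 TPM. Timp2 was at 230.87 TPM in non-phagocytic IL-10 library 1, against 208.52 to 212.32 TPM. Timp3 was at 0.17 TPM in Treg-phagocytic IFN-γ library BV421-2, and 0 in the others. Adam8 was at 362.01 TPM in M0 library 3, against 370.56 to 371.91 TPM.

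In the contrast of Treg- against Tconv-phagocytic macrophages, 3 further genes had a difference between IFN-γ and IL-10 that passed the test of the interaction (limma). It was -1.09 on the log2 scale for Irf1 (adjusted p 0.000186), -0.84 for Adam33 (adjusted p 0.0175, and up to 0.0756 over its alternatives) and 0.91 for Fn1 (adjusted p 0.0487). The last was lost in 18 of 24 alternatives, with adjusted p of 0.00556 to 0.163.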

How the results depend on the processing

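Of 1690 recomputed member differences, 1 reversed after a call: Adam8 in non-phagocytic IFN-γ against IL-10 libraries, at -0.0615 without scaling. None of 584 values of named genes reversed. With 1 model of all 28 libraries the count of genes called was 1799 in place of 3636 for non-phagocytic IL-10 against M0, 4415 in place of 1707 for IFN-γ Treg against Tconv, 3852 in place of 1073 for IFN-γ Treg against no uptake, 116 in place of 1 for IFN-γ Tconv against no uptake, and under IL-10 107 in place of 194 (Treg against Tconv), 636 in place of 1530 (Treg against no uptake) and 255 in place of 827 (Tconv against no uptake). Variance weights gave 0 for IFN-γ Tconv against no uptake and 366 for IL-10 Treg against Tconv, and a pseudocount of 0.1 gave 3 for the former. Members called for IFN-γ Treg against Tconv were 2, and 1 without filter or without scaling, 4 with 1 model and 4 with weights. For IFN-γ Treg against no uptake they were 1, and 2 with median-of-ratios scaling, 4 with 1 model and 2 with weights. For IL-10 Treg against Tconv they were 4, and 2 without filter and 2 with 1 model, for IL-10 Treg against no uptake 6, and 3 with 1 model, and for the difference between cytokines 2, and 1 with a pseudocount of 0.1.

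Leaving out each library in turn gave 1023 to 1662 genes and 1 to 3 members for IFN-γ Treg against Tconv, 662 to 901 genes and 0 to 2 members for IFN-γ Treg against no uptake, 0 to 2 genes for IFN-γ Tconv against no uptake, 115 to 193 genes and 2 to 3 members for IL-10 Treg against Tconv, 991 to 1402 genes and 3 to 6 members for IL-10 Treg against no uptake and 503 to 601 genes for IL-10 Tconv against no uptake. The count moved by over 1.5 times without IFN-γ Tconv BV421-2, Ax647-1 or Ax647-2 in the first, without non-phagocytic library 1, 2 or 4 in the second, without non-phagocytic library 1 or 2 or any 1 Tconv library in the third, without IL-10 Tconv BV421-1 or Ax647-2 or Treg BV421-1 or BV421-2 in the fourth, without non-phagocytic library 3 in the fifth, and without non-phagocytic library 3 or Tconv BV421-2 or Ax647-2 in the sixth. These fits have fewer samples.

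Replicate numbers are shared between groups, and same-numbered libraries deviated together weakly or not at all (correlations of -0.132 to 0.168). A replicate block joins same-numbered libraries, and whether they share more than the number is not known. With the block by number, genes called were 590 for IFN-γ Treg against no uptake, 0 for IFN-γ Tconv against no uptake, 76 for IL-10 Treg against Tconv (111 with the block by the titles), 967 for IL-10 Treg against no uptake and 399 for IL-10 Tconv against no uptake, and members called were 1 for IFN-γ Treg against Tconv (1 by the titles), 0 for IFN-γ Treg against no uptake and 2 for IL-10 Treg against Tconv. Bgn lost its call for IFN-γ Treg against no uptake under the block. For IFN-γ Treg against Tconv, 4 of 4 libraries correlated best with their own number (correlations of 0.027 to 0.05). The call of Mmp12 in that comparison was lost with the block. Within a dye, differences of Treg against Tconv that were not called changed sign for Mmp9 (-0.19 to 1.42), Mmp13 (-0.07 to 0.30) and Mmp19 (-0.01 to 0.33) under IFN-γ and for Adam8 (-0.03 to 0.04) under IL-10. Depth limits Mmp9, Timp1 and Timp3 under IFN-γ, where libraries hold few reads of them.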
